A study of Homo sapiens with 6 samples.

Results

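The NF-kappaB feedback genes examined here are 10 genes that encode subunits of the transcription factor, inhibitors that hold it back, and targets it is known to switch on. They are NFKB1, NFKB2 and RELB (subunits), NFKBIA, NFKBIB and NFKBIE (IkappaB inhibitors), TNFAIP3, TNIP1 and BIRC3 (ubiquitin regulators of the signal) and IL6 (a cytokine target). Members were all probe sets, other than controls, that the platform annotation assigns to 1 of these symbols alone. The rule found 9 of the 10 genes, read by 16 probe sets, among 19775 genes and 54613 probe sets in all, and no value is given for BIRC3, for which the annotation used here names no probe set. The genes were chosen by their place in the pathway, with the rises of TNFAIP3 and IL6 between the same DMSO and CA arrays already known. The differences of these 2 genes are therefore given as a description, and the question put to the data is whether the feedback genes moved as a set or singly.

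K562 is an established line from a chronic myelogenous leukaemia, and the labels name no genetic change to it. The groups were kept for 3 h in DMSO, the vehicle, or in 25 nM CA, which the series title spells out as cortistatin A. Cortistatin A blocks CDK8 and CDK19, the kinases of the Mediator complex. Each group had 3 replicates plated in a 12-well format, and every array received cRNA made from 100 ng of total RNA. The labels do not say whether the wells came from separate cultures, so p-values measure the spread between these samples only.

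In resting cells NF-kappaB dimers are held in the cytoplasm by IkappaB proteins. Signals from TNF, interleukin 1 or Toll-like receptors activate the IkappaB kinase through ubiquitin chains, IkappaB is degraded, and the dimers enter the nucleus. Among the genes they induce are those of their own inhibitors, NFKBIA and TNFAIP3, which close the loop, and joint induction of several feedback genes is a common sign of NF-kappaB activity. The Mediator kinases act on transcription by RNA polymerase II and have been linked to both activation and repression of signal-dependent genes.

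The DNA before the listed starts of these genes, chosen for their place in the pathway, was searched for matches to a kappaB consensus. Below are the 100 bases before a listed start of 5 members. They are shown to compare TNFAIP3 and IL6 with 3 members whose arrays overlapped between groups. Only stretches that held a match are shown. NFKB1 and TNIP1 each have another listed start, and the bases searched before it held no match. Capitals mark matches to the decameric kappaB consensus on either strand (sequences from RefSeq, GRCh38.p14, 5′ to 3′ on the strand of the gene).
TNFAIP3, chr6:137867159-137867258, plus strand: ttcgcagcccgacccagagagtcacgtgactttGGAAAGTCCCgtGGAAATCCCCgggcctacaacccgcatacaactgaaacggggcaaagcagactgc
IL6, chr7:22727100-22727199, plus strand: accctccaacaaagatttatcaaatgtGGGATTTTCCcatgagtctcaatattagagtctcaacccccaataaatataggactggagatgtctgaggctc
NFKBIA, chr14:35404750-35404849, minus strand: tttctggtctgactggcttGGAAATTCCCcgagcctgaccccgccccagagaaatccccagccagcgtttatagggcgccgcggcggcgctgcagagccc
NFKB1, chr4:102501259-102501358, plus strand: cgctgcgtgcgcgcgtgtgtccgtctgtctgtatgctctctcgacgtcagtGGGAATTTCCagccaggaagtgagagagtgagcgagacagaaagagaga
TNIP1, chr5:151081035-151081134, minus strand: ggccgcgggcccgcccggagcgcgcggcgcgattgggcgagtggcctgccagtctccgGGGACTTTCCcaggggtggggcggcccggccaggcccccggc

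TNFAIP3 held 2 matches, GGAAAGTCCC beginning 67 bases and GGAAATCCCC beginning 55 bases before the start. The others shown held 1 match each: GGGATTTTCC in IL6, GGAAATTCCC in NFKBIA, GGGAATTTCC in NFKB1 and GGGACTTTCC in TNIP1. Over 250 bases before the start, all 8 members with a sequence in the table had a match before at least 1 of their listed starts, in 9 of 13 windows. In windows of that length TNFAIP3 was not alone in holding 2 or more. BIRC3 held 2, NFKBIB held 2 that share bases, and NFKB2 held 3 before a listed start and 2 before another. NFKBIB and NFKB2 are members whose arrays overlapped between groups. Of all windows, 0.632% held 2 or more. A match was present in 5.2% of all windows of that length (1816 of 34943), and before at least 1 listed start of 6.28% of all genes with a window. A match is a string of letters, not a measured binding site, and it was present both in members whose groups stood apart and in members whose groups overlapped. The TNFAIP3 and TNIP1 windows lie inside the annotated spans of their genes, whose first annotated base lies farther upstream.

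TNFAIP3 and IL6 stood higher on the CA arrays, while NFKB1, NFKBIA, NFKBIB, NFKBIE and TNIP1 did not separate the groups. TNFAIP3 was 1.43-fold and 1.62-fold higher on its 2 probe sets, and IL6 was 1.42-fold higher. Every other tested member probe set had a log2 change between -0.09 and 0.10. The members NFKB2 and RELB lay below the signal filter on all their probe sets and showed no separation. Among the members that could be tested, TNFAIP3 and IL6 stood apart and the other genes did not, so the set did not move together in these values. Both rises were known beforehand, and the difference between genes was not tested. IL6 did not pass the threshold given below. TNFAIP3 passed it with every array in the fit, but not with any array left out. Groups stood apart in either direction on 15.6% of all tested probe sets.

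The values are RMA log2 signals, for which the authors subtracted background and set all arrays to one distribution. A change is the CA mean minus the DMSO mean, 1 log2 unit being a doubling, on a scale relative to the other transcripts. Probe sets with a mean below 3.49, the median of such means, were left untested, which kept 27307 probe sets and 10 of the 16 member probe sets, from 7 genes. Tests are from limma, with Benjamini-Hochberg adjustment over all 27307, and a probe set is called if its adjusted p is under 0.05. With 3 arrays per group the number of arrays limits the precision, and the median standard error (SE) of a change was 0.07. In RNA from whole wells, more RNA per cell and more cells carrying that RNA cannot be told apart.

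The arrays were alike, with correlations of 0.997 among all pairs, but CA array 1 lay apart on the second principal component, at -19.0 against 0.338 to 7.20 for the others. Of the K562 marker list, 9 of 15 genes had a probe set and all 9 passed the filter, among them the embryonic globin HBE1 at 13.3 and the transferrin receptor TFRC at 12.2. For the T cell, B cell, monocyte and fibroblast lists 13 of 19 genes with a probe set passed, the highest being CD3D at 9.07 and LYZ at 8.88. CD2, CD8A, MS4A1, CD14, CD163 and COL3A1 were below the filter, and 0 markers of any list were called by limma. The summed signal of each of these 4 lists overlapped between groups, and that of the K562 list was 14.32 to 14.33 log2 units on DMSO and 14.34 to 14.37 on CA. Some measures of labelling differed between groups and others overlapped. The excess of 3' over 5' signal of ACTB was 1.40 to 1.49 log2 units on the DMSO arrays and 1.14 to 1.31 on the CA arrays. The 3' probe sets of the added polyadenylated controls averaged 8.19 to 8.32 on DMSO and 8.02 to 8.11 on CA. The same excess for GAPDH overlapped, at 0.62 to 0.65 on DMSO and 0.58 to 0.63 on CA. The 5' probe sets of the added controls overlapped too, at 6.26 to 6.38 on DMSO and 6.14 to 6.37 on CA.

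Among the ubiquitin regulators, TNFAIP3 encodes A20, an enzyme that edits ubiquitin chains on signalling proteins and so ends NF-kappaB activation. Its gene lies at chr6:137866349-137883312. On probe set 202644_s_at it read 6.32, 6.38 and 6.34 on DMSO arrays 1 to 3 and 6.83, 6.89 and 6.87 on CA arrays 1 to 3. The lowest CA array exceeded the highest DMSO array, and the spread within a group was small, with an SD of 0.03 in each (n = 3). The change was 0.51 (95% confidence interval 0.41 to 0.62), which is 1.33-fold to 1.53-fold.

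The other TNFAIP3 probe set, 202643_s_at, read 4.77, 4.77 and 4.65 on the DMSO arrays and 5.56, 5.36 and 5.36 on the CA arrays. The groups again did not overlap, and CA array 1, the array that lay apart, was the highest. The change was 0.70 (0.52 to 0.87). The intervals of the 2 probe sets overlap. Both carry the suffix _s_at, which the platform gives to probe sets whose probes can match more than 1 transcript, and TNFAIP3 has no other probe set in the annotation.

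TNIP1 encodes a ubiquitin-binding partner through which A20 reaches its substrates. Its tested probe set, 207196_s_at, read 6.91, 6.97 and 6.88 in DMSO and 6.995, 6.88 and 6.84 in CA. The groups overlapped, and the change was -0.01 (-0.15 to 0.12, limma adjusted p = 0.968). A second probe set, 243423_at, was below the filter at 2.27 in DMSO and 2.40 in CA, with overlapping groups.

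IL6 encodes the cytokine interleukin 6, a classical NF-kappaB target that also responds to AP-1 and C/EBP factors. Its only probe set, 205207_at, was dim. Its mean over all arrays, 4.50, lay below some markers of other cell types, such as CD79A at 4.70 and COL1A1 at 6.94. It lay above others, such as MARCO at 4.07, so passing the filter does not show that IL6 RNA was present. The IL6 probe set read 4.33, 4.20 and 4.22 in DMSO and 4.76, 4.84 and 4.67 in CA. All CA arrays lay above all DMSO arrays, the group means being 4.25 ± 0.07 and 4.76 ± 0.08 (SD, n = 3). The change was 0.51 (0.36 to 0.66), the size seen for the first TNFAIP3 probe set, but IL6 was not past the threshold (limma adjusted p = 0.0723). Its adjusted p was 0.0191 with a prior variance that follows the signal and 0.0199 and 0.0197 with scaling to the 3' and 5' added controls. It was 0.248 with no filter, 0.407 with the replicate block, 0.718 with the ACTB 3'/5' difference as a covariate and 0.196 to 0.328 with 1 array left out.

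**Figure D1:**
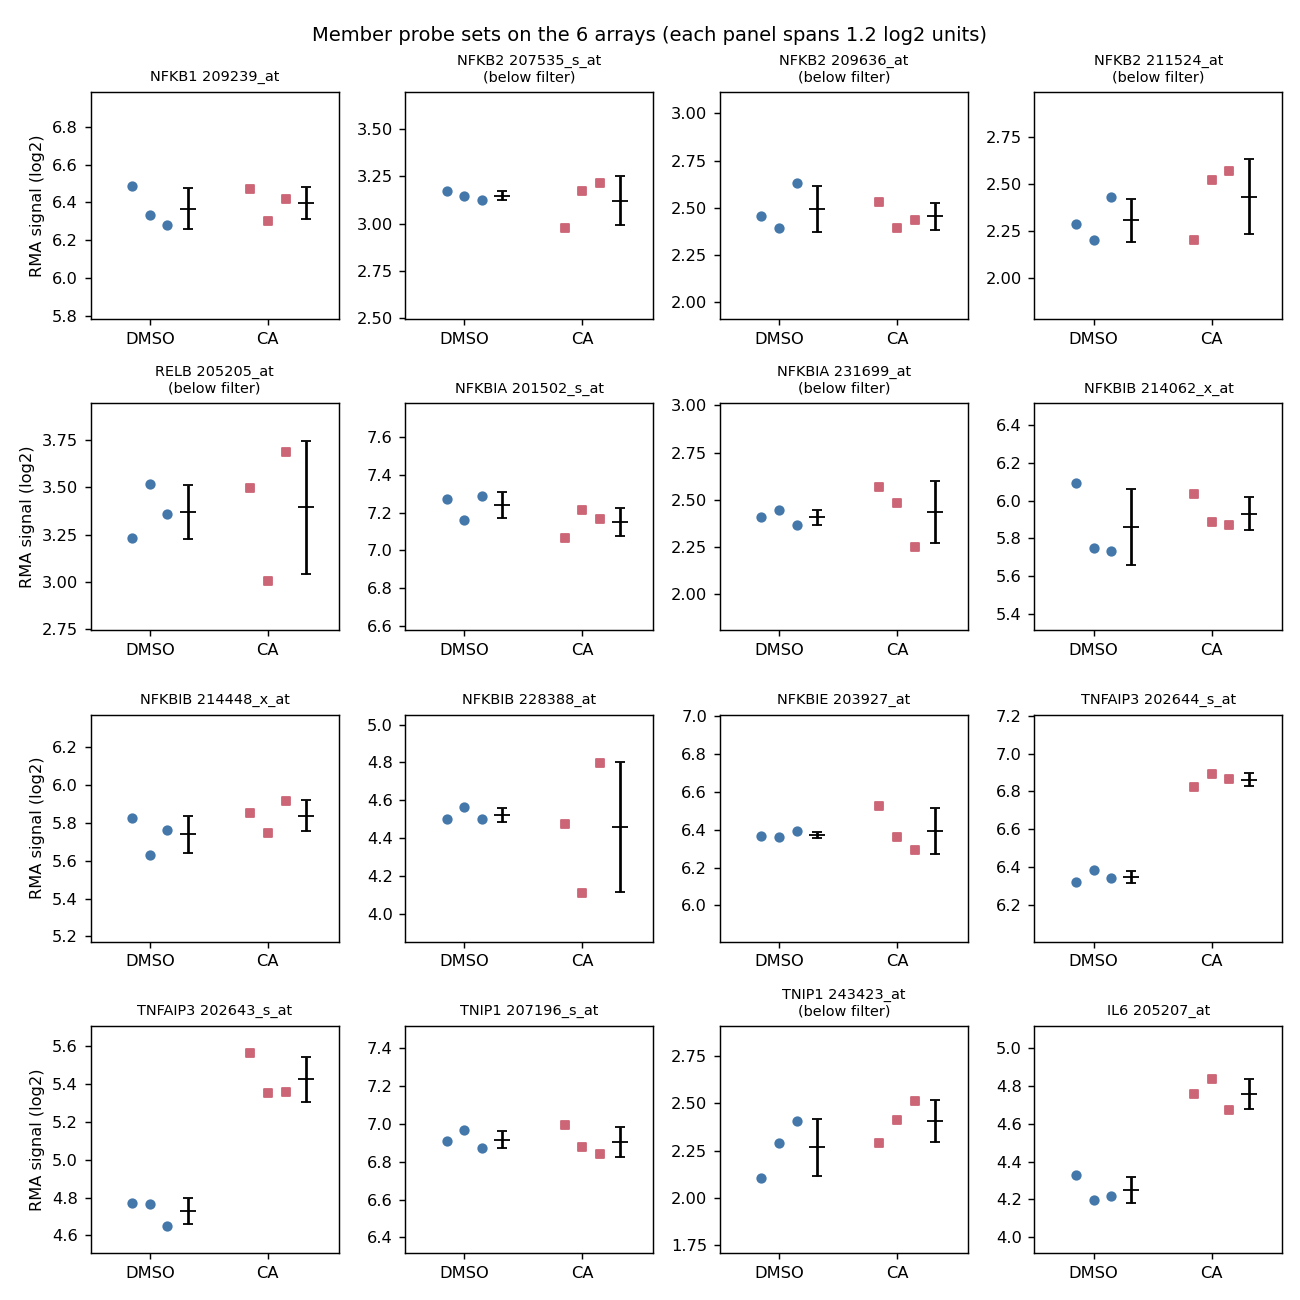
RMA signal (log2, vertical axis) of the 16 member probe sets on the 3 DMSO arrays (blue circles) and the 3 CA arrays (red squares), each group in order of replicate number, with the group mean and SD in black; every panel spans 1.2 log2 units, so distances can be compared across panels. Both TNFAIP3 panels and the IL6 panel show groups that do not overlap, and the other 13 panels show overlap.

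The subunit genes did not separate the groups. NFKB1 encodes a precursor that is processed to a DNA-binding subunit without an activation domain of its own. On 209239_at it read 6.49, 6.34 and 6.28 in DMSO and 6.47, 6.30 and 6.42 in CA. DMSO array 1 was the highest of the 6, and the change was 0.03 (-0.14 to 0.20, limma adjusted p = 0.937). NFKB2, the precursor gene of the non-canonical pathway, was below the filter on its 3 probe sets, whose changes were -0.03, -0.04 and 0.12. RELB, the usual partner of the NFKB2 product, was below the filter too, at 3.37 ± 0.14 in DMSO and 3.39 ± 0.35 in CA (SD, n = 3). For these dim probe sets the data give no test, and a change of those genes may have gone undetected.

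The IkappaB genes did not separate the groups either. NFKBIA encodes IkappaB-alpha, the inhibitor that NF-kappaB induces fastest, and it is often read alongside TNFAIP3. On 201502_s_at it read 7.27, 7.16 and 7.29 in DMSO and 7.07, 7.21 and 7.17 in CA. The groups overlapped, and the change was -0.09 (-0.23 to 0.05, limma adjusted p = 0.697). On the RMA scale an NFKBIA rise of more than 0.05 therefore lies outside the interval. With scaling to the 3' polyadenylated controls the change was 0.09 (SE 0.08), so that bound holds for the RMA scale only. Its second probe set, 231699_at, was below the filter, at 2.41 in DMSO and 2.44 in CA.

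NFKBIB encodes IkappaB-beta, which is degraded and replaced more slowly than IkappaB-alpha. Its probe sets changed by 0.07 (-0.18 to 0.33), 0.10 (-0.07 to 0.27) and -0.06 (-0.45 to 0.32), with overlapping groups on all 3. On the last of these, 228388_at, the CA arrays ran from 4.11 to 4.80 while the DMSO arrays ran from 4.50 to 4.56, and that spread sets its wide interval. NFKBIE encodes IkappaB-epsilon, a further inhibitor under NF-kappaB control. On 203927_at it read 6.37, 6.36 and 6.39 in DMSO and 6.53, 6.36 and 6.29 in CA, a change of 0.02 (-0.14 to 0.18). The CA values lay on both sides of the DMSO values.

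**Figure D2:**
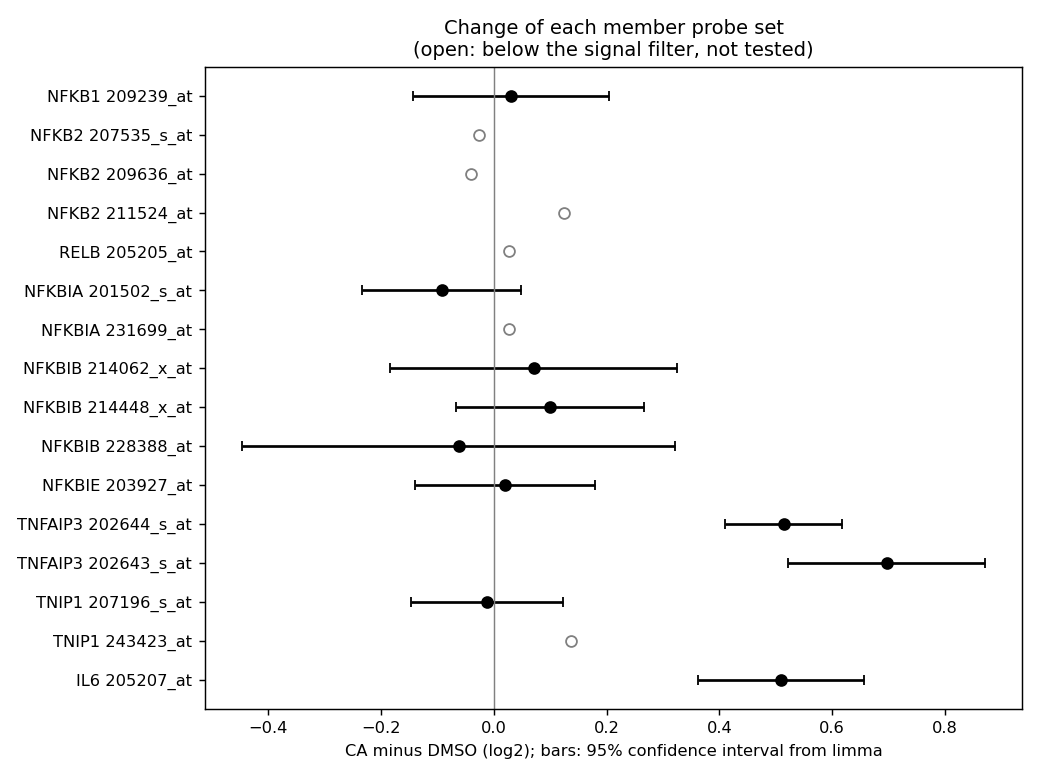
Change of each member probe set, CA minus DMSO (log2, horizontal axis), with the 95% confidence interval from limma for the 10 tested probe sets; open circles are the 6 probe sets below the signal filter. The intervals of the 2 TNFAIP3 probe sets and of IL6 lie above 0.36, and the intervals of the other 7 tested probe sets all include 0 and end at or below 0.33.

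Across the set, 2 of the 10 tested member probe sets were called, both of TNFAIP3 and both higher, where 0.0952% of all tested probe sets were called in either direction and 0.0513% were called higher. These shares stand for 26 and 14 probe sets, and the count moved with the processing, to between 2 and 5 with 0 higher when any 1 array was left out and to 1888 with 1873 higher under scaling to the 3' polyadenylated controls. Groups stood apart on 3 of the 10, all higher in CA, against 7.09% of all tested probe sets higher and 8.52% lower. These counts rest on the values for which the genes were chosen and are given as a description. Of the 7 tested probe sets of the other 5 genes, 0 were called by limma and 0 had an unadjusted p under 0.05, which 9.31% of all tested probe sets had, with adjusted p between 0.697 and 0.968. Their fitted changes were above 0 on 4 and below 0 on 3. The median change of all 16 member probe sets was 0.03, and that of all tested probe sets was -0.01. The lower limits of the TNFAIP3 and IL6 intervals reached down to 0.36 and the upper limits of the others up to 0.33. The difference between genes was not tested.

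The calls of TNFAIP3 rested on all 6 arrays and on the filter. Leaving out any 1 array left 0 member probe sets called, with changes of 0.50 to 0.53 and 0.63 to 0.73 for the 2 TNFAIP3 probe sets and limma adjusted p between 0.0916 and 0.287. With no filter 0 were called, at limma adjusted p of 0.121 and 0.129, where 0.00916% of all probe sets were called. With the ACTB 3'/5' difference as a covariate the changes were 0.56 (SE 0.11) and 0.59 (SE 0.17), and that of IL6 was 0.37 (SE 0.14), with 0 called. Scaling to the 3' polyadenylated controls moved the median of all tested probe sets from -0.01 to 0.18 and gave 0.70, 0.88 and 0.69 for the same 3 probe sets. On that scale NFKBIA had 0.09 (SE 0.08), the opposite sign to its main value.

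**Figure D3:**
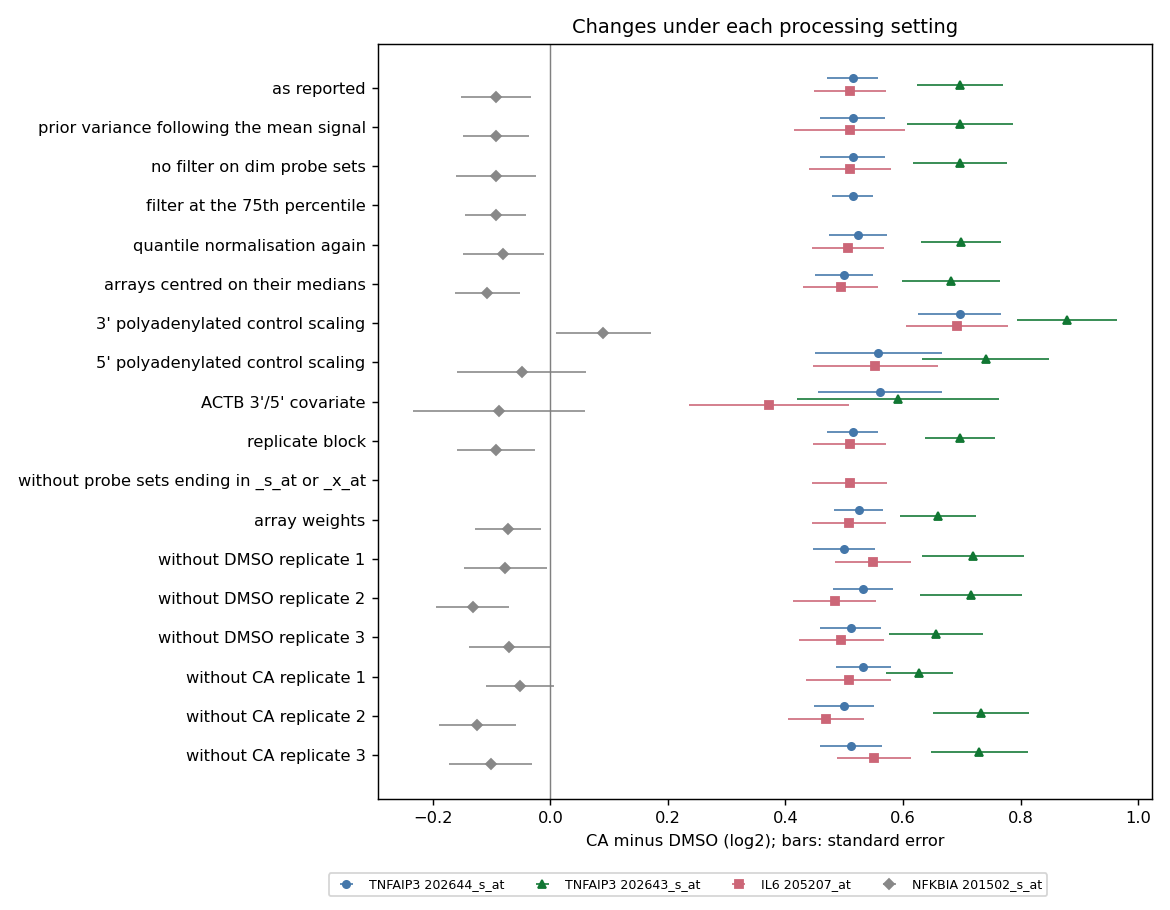
Change, CA minus DMSO (log2, horizontal axis; bars are standard errors), of both TNFAIP3 probe sets, IL6 and NFKBIA under each processing setting (vertical axis); a probe set that a setting removes has no point. TNFAIP3 and IL6 stay between 0.37 and 0.88 under every setting that kept them, and NFKBIA stays between -0.13 and 0.09.

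Other genes of the pathway were taken from 5 lists arranged by role, 101 genes in all, of which 92 had a probe set and 71 were measured, each read from its tested probe set with the highest mean. By limma 0 of the 71 were called in either direction, where 0.0859% of all 12810 measured genes were called. At an unadjusted p under 0.05 there were 2 higher and 9 lower, or 15.5% of the 71, against 8.61% of all measured genes, of which 460 were higher and 643 lower. The median change was -0.03, beside -0.01 over all measured genes. Scaling to the 3' controls raises every change, and on that scale TNFRSF12A, REL, TANK, TNFSF9 and MAP3K8 kept a negative sign while the other genes named below with negative changes turned positive.

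TNFRSF12A, the receptor for the cytokine TWEAK and an activator of the non-canonical pathway, had the smallest p. It read 7.10, 6.96 and 6.98 in DMSO and 6.60, 6.55 and 6.62 in CA. The groups did not overlap, and the change was -0.42 (-0.55 to -0.29, limma adjusted p = 0.0819). It was called with a prior variance that follows the signal (adjusted p = 0.00221) and with a filter at the 75th percentile (adjusted p = 0.00871). It was not called with any 1 array left out (adjusted p from 0.212 to 0.371) or with the ACTB covariate (adjusted p = 0.694), and scaling to the 3' controls took the change to -0.24. Among the 18 measured receptors and adaptors, each by its brightest tested probe set, it was the only one at an unadjusted p under 0.05. The next by p were the adaptor BCL10 at -0.10 and the receptor TLR4 at -0.09. IRAK1, a kinase of interleukin 1 signalling, had -0.04 on its brighter probe set and 0.15 on the other. CD40, named after its values were seen, had fitted changes above 0 on its 3 tested probe sets, from 0.08 to 0.29. On 1 of the 3 the groups stood apart, and 1 had an unadjusted p under 0.05.

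Of the 5 other subunit and IkappaB-like genes measured, REL, which encodes the subunit c-Rel, had the smallest p. On 235242_at it read 6.42, 6.49 and 6.43 in DMSO and 6.28, 6.29 and 6.08 in CA, a change of -0.23 (-0.40 to -0.07, limma adjusted p = 0.366). Its 4 tested probe sets all had fitted changes below 0, from -0.15 to -0.26, and the groups stood apart on 2 of them. RELA, the main activating subunit, had -0.09 and NFKBIZ, an inducible nuclear IkappaB protein, had -0.09, both with overlapping groups.

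Of the 11 measured IKK and TAK1 kinase genes, 1 had an unadjusted p under 0.05 on its brightest tested probe set. This was TAB3, a ubiquitin-binding subunit of the TAK1 complex, at -0.15 (limma adjusted p = 0.364). The kinase genes MAP3K8 and IKBKE had -0.19 and -0.11, and MAP3K7, which encodes TAK1 itself, had -0.05. The 4 tested MAP3K7 probe sets disagreed, 2 above and 2 below 0, from -0.09 to 0.13, and on 1 of them the CA arrays all lay above the DMSO arrays. TAB2, named after its values were seen, had -0.08 on its brighter tested probe set and 0.16 on the other. On that other probe set the CA arrays lay above the DMSO arrays, with an unadjusted p under 0.05. Of 15 measured ubiquitin regulators and partners of A20, 3 had an unadjusted p under 0.05 on their brightest tested probe sets. They were TANK (-0.21), an adaptor of the TBK1 kinase, TNIP2 (-0.12), a relative of TNIP1, and OTULIN (-0.13), which removes linear ubiquitin chains, with adjusted p between 0.403 and 0.506. The probe sets of TANK disagreed, 1 of the 3 tested having 0.23. The 3 tested OTULIN probe sets all had fitted changes below 0, from -0.13 to -0.004, and only 1 had an unadjusted p under 0.05. TAX1BP1, an adaptor of A20, had -0.04, and its 3 tested probe sets ran from that value to 0.10. RBCK1, also named after its values were seen, had 0.001 on its brighter tested probe set and 0.15 on the other. There too the CA arrays lay above the DMSO arrays on the dimmer probe set, with an unadjusted p under 0.05.

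Target genes went both ways. Of 22 measured, 2 had an unadjusted p under 0.05 and were higher, and 3 were lower. TNFAIP8, an inhibitor of cell death, read 9.44, 9.37 and 9.38 in DMSO and 9.56, 9.55 and 9.51 in CA, a change of 0.14 (limma adjusted p = 0.376). IER3, an immediate early gene, had -0.15 (adjusted p = 0.349), and TNFSF9, the ligand of the receptor 4-1BB, had -0.21 (adjusted p = 0.373). The remaining 2 of these 5, named after their values were seen, were CFLAR at 0.14 and SDC4 at -0.16. The median of the list was -0.03. Read from the brightest tested probe set of each gene, its highest fitted change was 0.16, for IL1B. The interval of IL1B, -0.11 to 0.44, overlapped those of IL6 (0.36 to 0.66) and TNFAIP3 202644_s_at (0.41 to 0.62). Another CFLAR probe set had 0.42, inside both of these intervals.

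**Figure D4:**
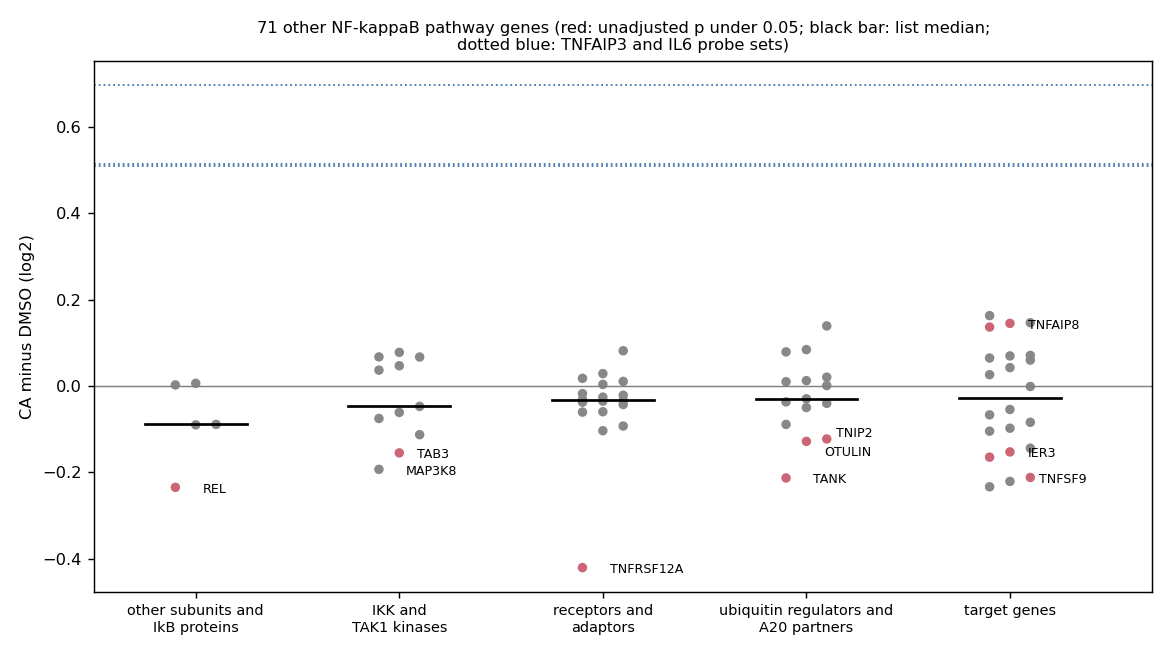
Change, CA minus DMSO (log2, vertical axis), of the 71 other pathway genes in 5 lists by role; red points had an unadjusted p under 0.05, black bars are list medians and dotted lines mark the TNFAIP3 and IL6 probe sets. All 71 points lie between -0.42 and 0.16, below the dotted lines.

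The genes whose profile over the 6 arrays was most like that of TNFAIP3 on 202644_s_at were GADD45A, CLP1, UTP25, CISH and MYC, with Pearson r of 0.993 to 0.995. They encode a stress-response protein, an RNA kinase of transcript processing, a ribosome biogenesis factor, an inhibitor of cytokine signalling and a growth regulator. All 5 had CA arrays above all DMSO arrays, with changes from 0.20 for UTP25 to 0.50 for MYC. The 6 points share the difference between the groups, which sets most of the correlation. Of the other members, IL6 had r = 0.961 with that probe set, and those of the remaining genes ran from -0.61 for NFKBIA to 0.58 for the dim TNIP1 probe set.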

How the data were processed

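RNA of 3 DMSO and 3 CA wells was measured on Affymetrix Human U133 Plus 2.0 arrays. The authors deposited 1 table of log2 values, made with RMA and the affy package per the submitters' processing notes, with no version given. RMA compresses changes of dim probe sets and hides a change shared by most transcripts. Genes were named from the platform annotation, which gave 1 symbol to 41091 probe sets, several to 1801 and none to 11721. Only the first kind was named, and 62 control probe sets were left out. CA and DMSO were compared per probe set in limma 3.58.1 under R 4.3.3 (2-sided, moderated variance, no block). The fit was checked on simulated data with independent noise for each probe set, which does not test effects shared by an array. The members and the pathway lists were chosen with earlier results of these data known. Named genes were all members and, from each list, every called gene or the 3 with the smallest p, the gene with the highest signal, and the 5 genes most correlated with TNFAIP3. Alternatives changed the variance model, filter, scaling, covariate, block, weights, shared probe sets and arrays. Correlations gave little sign that replicate numbers pair the arrays, but with 3 arrays per group they cannot exclude it.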

Additional observations from a re-analysis of the deposited data

How the results depend on the processing

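Both TNFAIP3 probe sets and IL6 kept a positive change under every alternative that retained them, from 0.50 to 0.70, 0.59 to 0.88 and 0.37 to 0.69. The 2 member calls became 0 with no filter, with the ACTB covariate, with the replicate block and without shared probe sets (which removes TNFAIP3), 1 with the filter at the 75th percentile (which removes 202643_s_at and IL6) or with centring, and 0 with any 1 array left out. They were 3, with IL6, under the prior following the signal, 3' control scaling and 5' control scaling, where the share of all tested probe sets called also moved, from 0.0952% to 1.04%, 6.91% and 0.143%. That share was 1.19% with the 75th percentile filter, where TNFAIP3 202644_s_at had a limma adjusted p of 0.00142, and 0.0842% with centring. It was 0.00916% with no filter, 0.00602% without shared probe sets and 0.00732% to 0.0183% with 1 array left out. The 0 calls in the pathway lists became 2 of 71 with that prior (TNFRSF12A, TNFAIP8), where 1.23% of all measured genes were called, 2 of 71 with 3' control scaling (TNFAIP8, CFLAR), where 5.4% were, and 1 of 45 with the 75th percentile filter (TNFRSF12A), where 1.21% were. Apart from these, the cause of a lost or gained call was not tested. The replicate block gave limma adjusted p = 0.348 for both TNFAIP3 probe sets, with 0 of all probe sets called and 2485 at an unadjusted p under 0.05, and the ACTB covariate gave 0 and 1792. Deviations of arrays with the same number correlated at -0.07, 0.01 and 0.06, and 2 of the 6 arrays correlated best with their own number. Fitted changes of NFKB1, NFKBIA, NFKBIE, TNIP1 and 2 of the 3 NFKBIB probe sets changed sign in at least 1 alternative, none of them called.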

Other observations

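CFLAR, a target gene that encodes the caspase inhibitor c-FLIP and was singled out after its values were seen, is read by 14 probe sets. Of the 11 tested, 9 had fitted rises and 2 fitted falls, from -0.05 to 0.42, and the CA arrays lay above the DMSO arrays on 6, as they did on 7.09% of all tested probe sets. On 211317_s_at CFLAR read 5.52, 5.57 and 5.45 in DMSO and 5.84, 6.15 and 5.80 in CA. None of the 11 was called by limma, the smallest adjusted p being 0.301, and 6 had an unadjusted p under 0.05, as 9.31% of all tested probe sets had. Of the 11, 10 are of the shared type, so they are not independent readings.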
